A study of Mus musculus with 120 samples.

Results

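The 10 genes described here encode the urea cycle enzymes Cps1, Otc, Ass1, Asl and Arg1, the enzyme Nags that makes their activator, and the amino acid degrading enzymes Gls2, Hal, Sds and Tat. They were chosen by symbol, and all 10 were found among the 24883 rows of the deposited expression table. The samples were livers of 10 Collaborative Cross strains (CC060, CC043, CC042, CC041, CC040, CC032, CC019, CC013, CC011 and CC003), inbred mouse lines bred from a common set of founders so that every line has its own blend of founder alleles. For 12 weeks, females and males of each strain received either the HF/HS diet, high in fat and sucrose, or the control diet, which was low in fat with less sucrose and otherwise matched. The HF/HS diet drew 42% of its energy from milkfat and held 0.2% cholesterol and more than 30% sucrose. Each of the 40 strain, sex and diet groups had 3 libraries, named here by group and number. The labels give no ages and do not state that a group's libraries are from different mice, so the p-values reflect library-to-library spread, which may be technical.

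The urea cycle turns ammonia, which is toxic, and the nitrogen of aspartate into urea for excretion. It runs mainly in the hepatocytes around the portal vein, where the first steps take place in mitochondria and the later steps in the cytosol. Protein intake, fasting, glucagon and glucocorticoids are known to raise several of these enzymes, and insulin is known to lower some of them. Gls2, Hal, Sds and Tat take amino acids apart and so provide ammonia, glutamate and carbon skeletons for glucose production.

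The genes lie on 7 chromosomes of mm10, and 3 of them share chromosome 10. Cps1, carbamoyl phosphate synthetase, spans chr1:67123026-67231267. Otc, ornithine transcarbamylase, spans chrX:10252358-10321024. Ass1, argininosuccinate synthetase, spans chr2:31470269-31520670, and Asl, argininosuccinate lyase, spans chr5:130011502-130024331. Arg1, the liver arginase that releases urea, spans chr10:24915206-24927470. Nags, N-acetylglutamate synthase, spans chr11:102145512-102149528. Gls2, the liver glutaminase, spans chr10:128194634-128210004, and Hal, histidine ammonia-lyase, spans chr10:93488767-93516743. Sds, serine dehydratase, spans chr5:120476546-120483905, and Tat, tyrosine aminotransferase, spans chr8:109990435-109999804. All are annotated as protein coding in GENCODE M21. Exons of Nags, Gls2 and Sds overlap exons of genes on the opposite strand (Gm11586 for Nags, Spryd4 for Gls2, Gm15690 and Plbd2 for Sds). Both library kits named in the labels are stranded, but whether the quantification used strand is not given in the sources used here, so the values of these 3 genes are less certain.

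The promoters are shown as a description, and their part in the differences between groups was not tested. RefSeq promoter sequence on GRCm38.p6 was matched by symbol for 5 of the 10 genes (Ass1, Tat, Hal, Nags and Otc), and the 250 bases before each start were searched on both strands. The motifs were the CRE TGACGTCA and its part TGACG, the TATA motif TATAAA, the CCAAT motif CCAAT, the C/EBP motifs TTGCGCAA and TTGCNNCAA (the second includes the first), the FOXA motif TGTTTAC, the glucocorticoid receptor part-site AGAACA and the nuclear receptor part-site AGGTCA. In the 3 windows with a match, all on the plus strand, capitals mark the matched letters.
Tat, chr8:109990186-109990435: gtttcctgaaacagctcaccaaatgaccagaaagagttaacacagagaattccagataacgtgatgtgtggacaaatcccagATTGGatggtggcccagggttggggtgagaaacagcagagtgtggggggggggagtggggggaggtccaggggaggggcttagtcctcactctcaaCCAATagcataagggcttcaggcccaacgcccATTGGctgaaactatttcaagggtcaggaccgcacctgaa
Hal, chr10:93488518-93488767: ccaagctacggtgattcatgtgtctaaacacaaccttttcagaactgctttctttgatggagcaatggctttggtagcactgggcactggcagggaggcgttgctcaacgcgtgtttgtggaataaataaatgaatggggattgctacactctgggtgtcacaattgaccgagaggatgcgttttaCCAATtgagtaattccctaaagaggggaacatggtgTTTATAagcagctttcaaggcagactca
Nags, chr11:102145263-102145512: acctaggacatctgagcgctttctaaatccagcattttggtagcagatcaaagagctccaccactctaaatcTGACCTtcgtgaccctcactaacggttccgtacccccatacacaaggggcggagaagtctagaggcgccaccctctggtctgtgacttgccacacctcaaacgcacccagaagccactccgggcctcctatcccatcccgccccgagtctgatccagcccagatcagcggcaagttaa

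The Tat window held the CCAAT motif 3 times, once as written and otherwise in reverse. The Hal window held it once, together with the TATA motif in reverse. The Nags window held the nuclear receptor part-site in reverse. Among all 32851 promoter windows of this length, 33.9% held CCAAT, 12.4% held TATAAA and 14.02% held AGGTCA. The Ass1 and Otc windows held none of the letters searched, which says only that these letters are not in these windows.

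Values are FPKM-like units per gene length, rescaled by the authors so that the 75th percentile of each library was between 9.992 and 10. Control library 3 and HF/HS library 1 of the CC040 females were identical in all rows, and both were left out, which leaves 59 libraries on each diet. Absolute depth is unknown. The steps between low values gave each library's reads per unit, relative to CC011 female control 2, as 0.591 to 1.22 in 8 strains and 0.598 to 1.05 in CC060, and this could not be read clearly in CC003. The libraries of CC003 and CC060 stood apart in kind: the small RNA gene Snord104 had a median of 755000 in CC003, 0 in CC060 and 37100 in the other 8 strains. The hepatocyte marker list (Ttr, Apoa1, Apob, Serpina1c, Hnf4a, Cyp2e1, Ahsg and Fgb) summed to 29550 or more in every library, as liver should, but albumin (Alb) was listed at 0 in 104 of 120 columns, so a listed 0 can be a failed estimate. The 2 kidney markers Umod and Slc34a1 were below the filter on low values. In CC011 female HF/HS library 1 the acute-phase gene Saa3 had a value of 47080, against at most 199 in the other 117 libraries. Counts that changed without this library are given both ways.

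On the control diet, Cps1, Arg1 and Tat were the most abundant of the 10, and Nags was the least abundant. Cps1 had a mean of 2155 ± 651 (SD over 59 control libraries, strain differences included), Arg1 1735 ± 480 and Tat 1537 ± 767. The other urea cycle enzymes were lower: Asl had 539 ± 238, Otc 412 ± 89.98 and Ass1 297 ± 112. Among the enzymes that take amino acids apart, Sds had 222 ± 142, Gls2 192 ± 60.0 and Hal 155 ± 45.3. Nags, which makes only the activator, had 48.5 ± 9.53. All 10 genes passed the filter of a mean of at least 1 by a wide margin, so none depended on it.

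**Figure D1:**
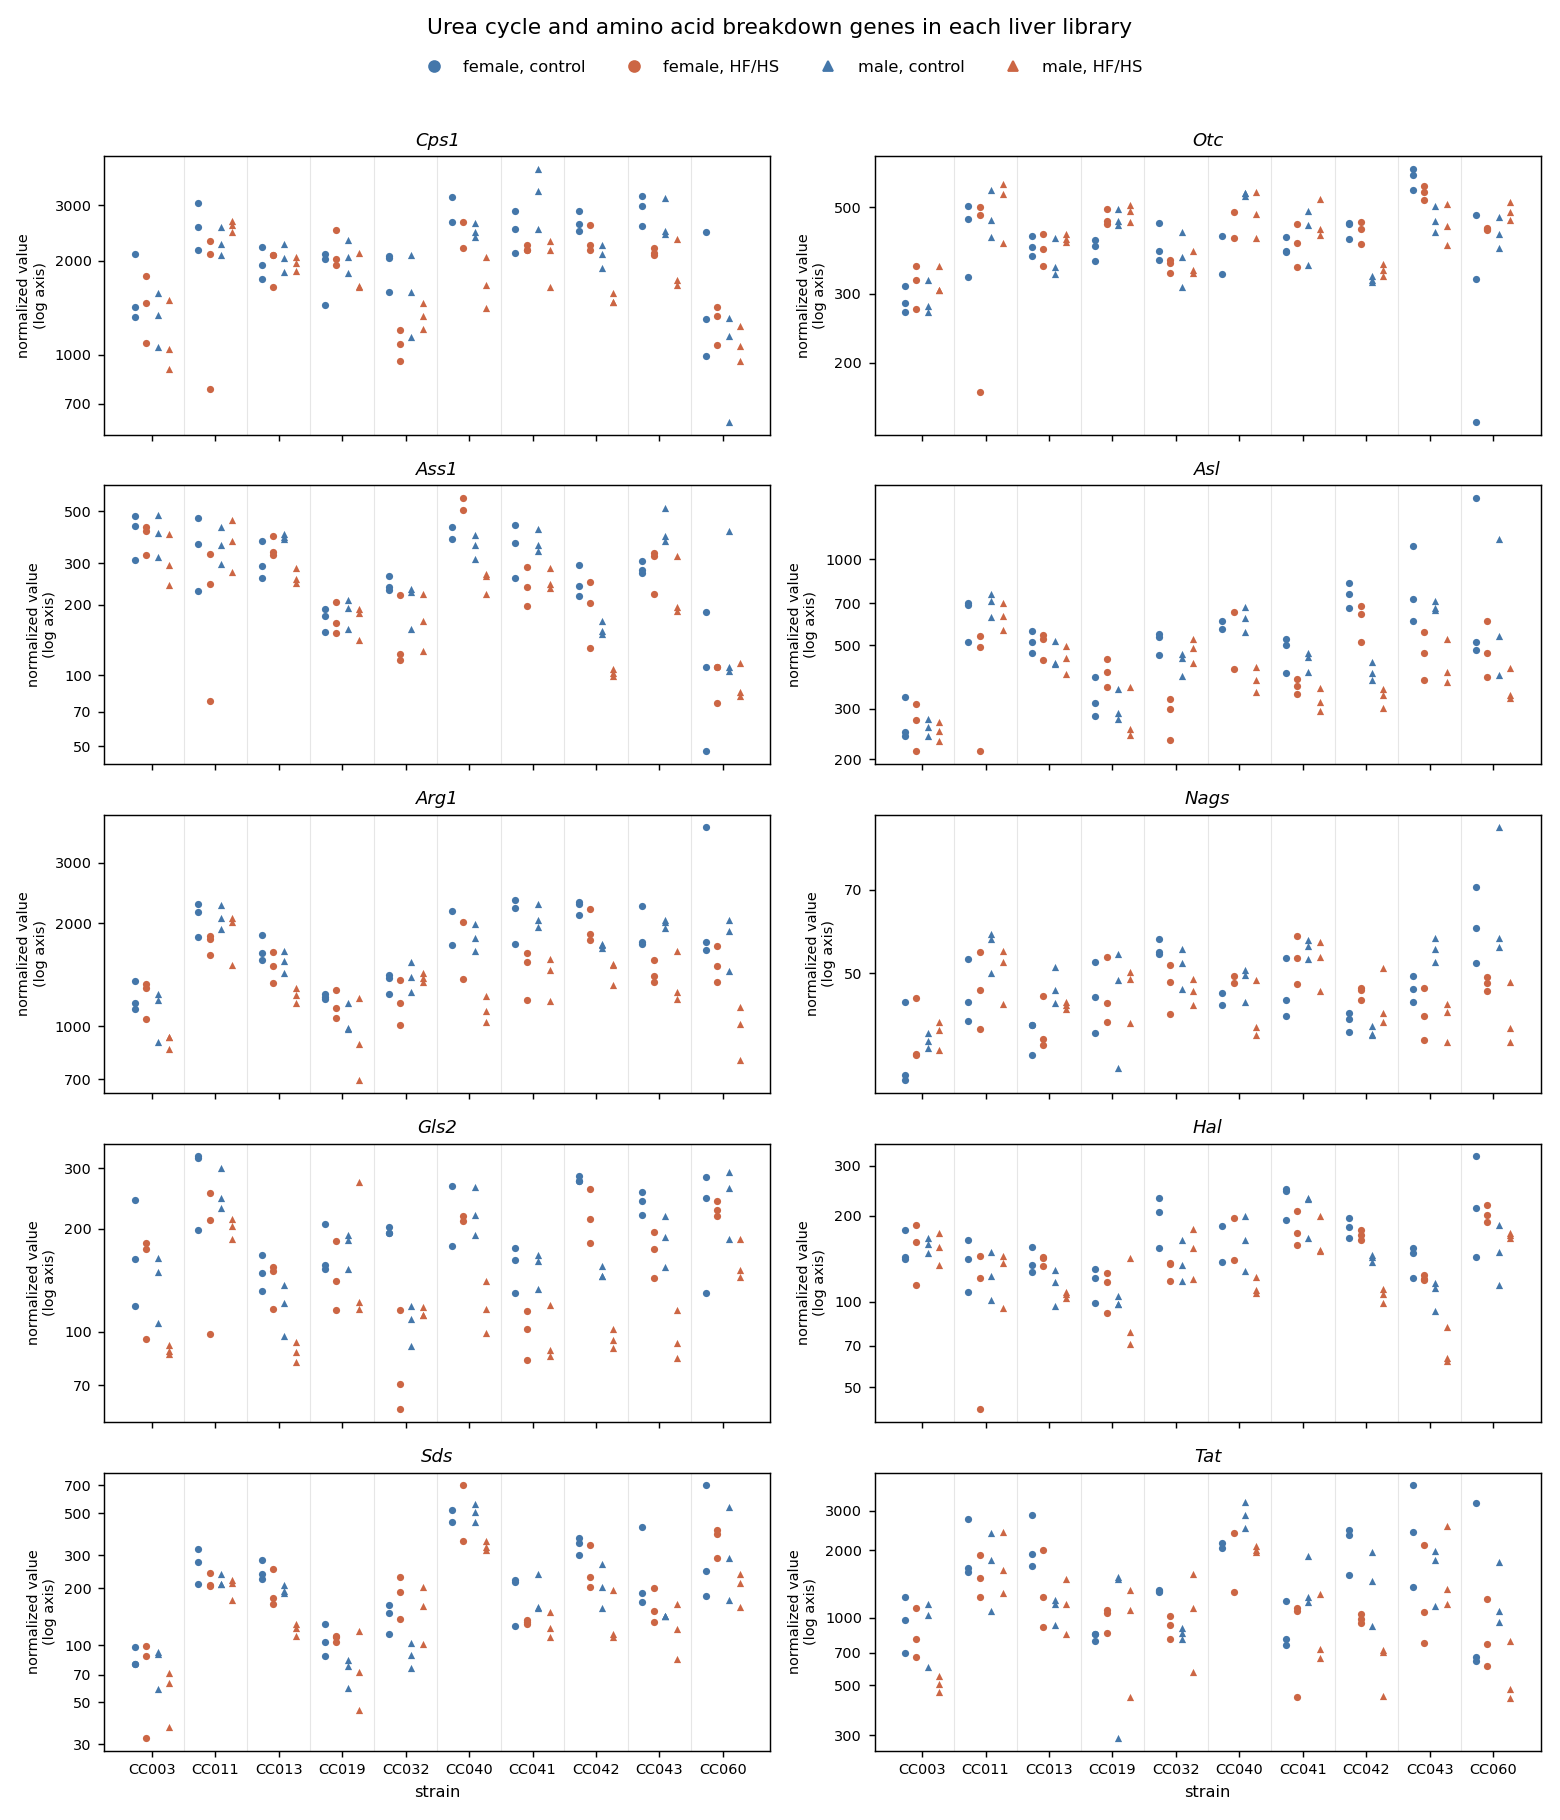
Normalized value (vertical log axes, FPKM-like units) of each gene in each library used, by strain; circles are females, triangles males, blue the control diet and orange the HF/HS diet, and every point is 1 library. Orange points tend to lie below blue points of the same strain and sex for Gls2 and Arg1 and not for Otc, and the lowest orange circle of CC011 in the Cps1, Otc, Ass1, Asl and Hal panels is female HF/HS library 1.

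The first comparison asked how the HF/HS diet changed these genes over all strains and both sexes. Of the 10 genes, 9 fell and 0 rose at an adjusted p under 0.05 (limma, Benjamini-Hochberg over the 12205 genes tested). Of all genes tested, 15.4% fell and 17.2% rose by the same rule. The members' median log2 difference was -0.30, against 0.00 over all genes tested. Gls2, Tat, Asl, Ass1 and Arg1 had the lowest estimates, Nags fell by the smallest amount of the 9, and Otc was not called.

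Cps1 binds ammonia to bicarbonate in the first, rate-setting step of the cycle. Its control libraries ranged from 612 to 3912 with a median of 2108, and its HF/HS libraries from 779 to 2673 with a median of 1781. The ranges overlapped widely, since they include the strain differences. Within strain and sex Cps1 fell by 0.27 ± 0.053 on the log2(value + 1) scale (estimate ± SE, limma adjusted p = 4.34e-05), a level 0.831 times that of the control diet. The HF/HS mean was lower in 17 of 20 strain and sex groups.

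Otc joins carbamoyl phosphate to ornithine, the next step in the mitochondrion. It ranged from 141 to 626 with a median of 417 on the control diet and from 168 to 574 with a median of 428 on HF/HS. The log2 difference was 0.06 ± 0.045 (limma adjusted p = 0.334), with an approximate interval of -0.03 to 0.15 (estimate ± 1.96 SE), so that a fall as large as that of Cps1 lay outside it. Otc was higher on HF/HS in 12 of 20 groups and lower in 8. It was called as a rise under 2 of 36 alternatives, quantile normalization (0.13, limma adjusted p = 0.00319) and library weights (0.07, limma adjusted p = 0.0198).

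Ass1 and Asl add the second nitrogen, from aspartate, and split off arginine in the cytosol. Ass1 ranged from 47.8 to 517 with a median of 298 on the control diet and from 76.7 to 569 with a median of 236 on HF/HS. It fell by 0.34 ± 0.073 (limma adjusted p = 0.000154), and was lower in 16 of 20 groups. Asl ranged from 241 to 1632 with a median of 513 on the control diet and from 214 to 704 with a median of 389 on HF/HS. It fell by 0.34 ± 0.056 (limma adjusted p = 1.15e-06) and was lower in 18 of 20 groups. Both were near 0.79 times the control level (0.793 for Ass1 and 0.792 for Asl).

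Arg1 closes the cycle by cutting arginine into urea and ornithine, and it had the lowest adjusted p of the 10. Control libraries ranged from 897 to 3816 with a median of 1734, and HF/HS libraries from 696 to 2203 with a median of 1343. Arg1 fell by 0.33 ± 0.038 (limma adjusted p = 5.53e-11), to 0.797 times the control level. It was lower on HF/HS in 19 of 20 groups, and the exception, CC003 females, differed by only 0.01.

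Nags, whose product switches Cps1 on, moved least among the called genes. Its control libraries ranged from 32.6 to 89.9 with a median of 47.0, and its HF/HS libraries from 36.1 to 58.0 with a median of 45.3. It fell by 0.07 ± 0.029 (limma adjusted p = 0.0383) and was lower in 10 of 20 groups and higher in 10. The call was lost in 13 of 36 alternatives, among them without CC060 (limma adjusted p = 0.45) and without CC011 female HF/HS library 1 (adjusted p = 0.0541). The adjusted p of Nags ranged from 0.0112 to 0.45 over those alternatives.

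Gls2 releases ammonia from glutamine in periportal hepatocytes, and it had the largest estimate of the 10. Control libraries ranged from 90.9 to 325 with a median of 185, and HF/HS libraries from 59.6 to 274 with a median of 117.6. Gls2 fell by 0.45 ± 0.056 (limma adjusted p = 2.58e-10), to 0.73 times the control level, and was lower in 18 of 20 groups. In 12 of 20 groups all its HF/HS libraries lay below all control libraries.

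Hal, which removes ammonia from histidine, ranged from 92.4 to 324 with a median of 146 on the control diet and from 42.0 to 219 with a median of 137 on HF/HS. It fell by 0.19 ± 0.052 (limma adjusted p = 0.00342). Sds, which turns serine into pyruvate and ammonia, ranged from 58.9 to 700 (median 190) on the control diet and from 32.3 to 701 (median 160) on HF/HS. It fell by 0.24 ± 0.074 (limma adjusted p = 0.00768), a call that was lost when each strain counted as 1 unit (limma adjusted p = 0.0967). Tat, which starts tyrosine breakdown and is a classic target of glucocorticoids, ranged from 291 to 3895 (median 1316) on the control diet and from 440 to 2561 (median 1061) on HF/HS. It fell by 0.42 ± 0.098 (limma adjusted p = 0.000437). Hal was lower in 15, Sds in 14 and Tat in 16 of 20 groups.

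The count was repeated without libraries that stood apart. Without the CC003 and CC060 libraries, 8 of 10 genes fell, and without CC011 female HF/HS library 1, 8 fell. Nags was the gene lost in both. With the strain as the unit, so that 10 strain means entered the test, 7 fell, and Nags and Sds were lost.

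Markers of other cells moved with the diet as well, and are read beside the 15.4% of all genes that fell and the 17.2% that rose. Of 8 hepatocyte markers, 5 fell and 1 rose (median -0.17), with Ahsg at -0.25 ± 0.039 and Cyp2e1 at 0.23 ± 0.058. Their summed level ranged from 34420 to 148900 on the control diet and from 29550 to 78640 on HF/HS. Of 8 macrophage markers, 5 rose and 0 fell (median 0.27), led by Gpnmb at 0.92 ± 0.091. Their sum ranged from 104 to 993 on the control diet and from 49.7 to 1247 on HF/HS. Of 8 periportal markers, 2 fell (Etnppl by 0.73 ± 0.12 and Ctsc by 0.19 ± 0.056) and 0 rose, with a median of -0.07 and sums of 1612 to 4866 and 1493 to 4749. Of 8 pericentral markers, 2 rose (Cyp2e1 and Glul) and 0 fell, with a median of 0.03 and sums of 3498 to 13250 and 3546 to 15060. Of 6 stellate cell markers, 2 rose (Col3a1 by 0.58 ± 0.089 and Col1a1 by 0.40 ± 0.073), and of 5 endothelial markers 2 rose (Stab2 and Pecam1), with 0 falling in either list. In the smaller lists, 1 of 2 bile duct markers, 1 of 3 red blood cell markers and the fat marker Cfd rose, and none of the lymphocyte, neutrophil and pancreas markers that passed the filter was called. No marker of the first 6 lists was at 0 in all libraries of a diet. In whole liver, fewer cells of a type and less RNA per cell cannot be told apart, and the part of these markers in the falls was not tested.

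**Figure D2:**
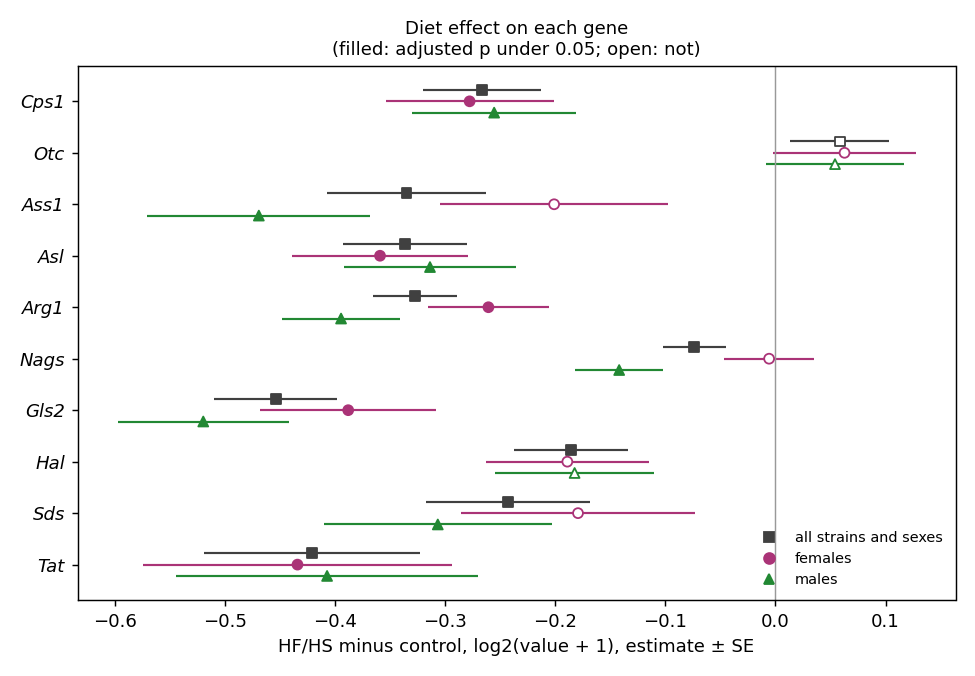
HF/HS minus control on the log2(value + 1) scale (horizontal axis) for each gene, over all strains and sexes (squares), in females (circles) and in males (triangles); bars are the SE, and filled symbols have an adjusted p under 0.05. Of the squares, 9 lie below 0 and are filled, Otc lies above 0 and is open, and Gls2 in males lies lowest at -0.52.

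The study has both sexes, so the diet effect was also taken in each. In females 5 genes fell (Cps1, Asl, Arg1, Gls2 and Tat) and 0 rose. Of all genes tested, 8.08% fell and 9.59% rose in females. In males 8 genes fell (all but Otc and Hal) and 0 rose, beside 9.93% and 11.0% of all genes. The members' median was -0.23 in females and -0.31 in males. The count in females was 3 without the control females of number 1 and 3 without CC032, and that in males was 5 without CC041. With the strain as the unit most calls were lost: only Arg1 stayed called in females, and only Ass1, Arg1 and Gls2 in males. Without CC011 female HF/HS library 1 the count was 5 in females and 9 in males, where Hal was added (limma adjusted p = 0.0231).

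Gls2 fell by 0.39 ± 0.080 in females (limma adjusted p = 0.000229) and by 0.52 ± 0.078 in males (1.68e-07). Arg1 fell by 0.26 ± 0.055 in females (limma adjusted p = 0.00032) and by 0.39 ± 0.054 in males (1.12e-08). Asl and Cps1 had like estimates in the sexes, -0.36 and -0.31 for Asl and -0.28 and -0.26 for Cps1. Tat fell by 0.43 in females and by 0.41 in males. Ass1 fell by 0.47 ± 0.10 in males (limma adjusted p = 0.000252), while its difference in females was -0.20 ± 0.10 (0.175). Sds fell by 0.31 in males (limma adjusted p = 0.024), and its difference in females was -0.18 (0.248). Nags fell by 0.14 in males (limma adjusted p = 0.00565), and its difference in females was -0.01 (0.942). Hal, at -0.19 and -0.18, and Otc, at 0.06 and 0.05, were called in neither sex. Over 36 alternatives, the calls in males of Sds, Tat and Nags were lost in 10, 11 and 5. The call of Tat in females was lost in 8.

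The difference between the sexes was tested itself, as the male minus female diet effect. None of the 10 genes was called (limma; 1 of 10, Nags, had an unadjusted p under 0.05), beside 0.877% of all genes. Nags had a male minus female difference of -0.14 (limma, unadjusted p = 0.0196, adjusted p = 0.335), with an approximate interval of -0.25 to -0.02. Ass1 had -0.27 (limma adjusted p = 0.472), with an approximate interval of -0.55 to 0.02, and Arg1 had -0.13 (0.505), with one of -0.28 to 0.02. These intervals leave room for a larger fall in males, and the calls in 1 sex alone do not show a difference. With library weights, 3 genes were called (Ass1, Arg1 and Nags), and the share of all genes called with these weights is not given here.

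Levels also differed between the sexes within a diet. On the control diet Gls2, Hal and Sds were lower in males and Nags was higher, beside 18.8% of all genes lower and 24.8% higher. Sds had a control median of 216 in females (79.4 to 700) and 166 in males (58.9 to 558), a difference of -0.34 ± 0.10 (limma adjusted p = 0.00621). Gls2 had medians of 198 (119 to 325) and 163 (90.9 to 302), a difference of -0.26 ± 0.079 (limma adjusted p = 0.00544). Hal had medians of 154 (98.8 to 324) and 136 (92.4 to 232), a difference of -0.25 ± 0.073 (limma adjusted p = 0.00419). Nags had medians of 44.7 (32.6 to 70.6) and 51.1 (34.2 to 89.9), a difference of 0.11 ± 0.040 (limma adjusted p = 0.022). The ranges of the sexes overlapped for each of these genes. Over 36 alternatives the control-diet call was lost in 10 for Nags, 4 for Gls2, 1 for Hal and 0 for Sds. Asl was called as lower in males in 10 alternatives and Arg1 in 3. Cell markers differed between the sexes too: on the control diet 5 of 8 macrophage markers were lower in males and 0 higher, 5 of 5 endothelial markers were lower, and of 8 periportal markers 4 were lower and 3 higher. The summed macrophage markers ranged from 140.9 to 993 in control females and from 104 to 460.8 in control males, the endothelial ones from 104.9 to 225.8 and from 113.4 to 201.0, and the periportal ones from 1618 to 4866 and from 1612 to 4467. On HF/HS, 6 macrophage markers were lower and 1 higher in males, and 5 of 5 endothelial markers were lower. Of the periportal markers, 4 were lower and 3 higher. Of all genes tested, 20.3% were lower and 25.1% higher in males on HF/HS. The part of these markers in the sex differences was not tested.

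On the HF/HS diet 4 genes were lower in males and 0 higher, beside 20.3% and 25.1% of all genes. They were Sds (-0.47 ± 0.10), Gls2 (-0.39 ± 0.079), Arg1 (-0.25 ± 0.054) and Hal (-0.24 ± 0.073), with limma adjusted p-values from 2.67e-05 to 0.00482. Gls2 had HF/HS medians of 174 in females (59.6 to 260) and 112 in males (81.7 to 274). Sds had HF/HS medians of 191 (32.3 to 701) and 127 (37.1 to 355). Under size factor scaling and under quantile normalization Nags was not called on the control diet, and Asl and Arg1 were called as lower in males. Without CC011 female HF/HS library 1 the count on the control diet was 5, with Asl added (limma adjusted p = 0.044). With the HF/HS females of number 1 left out, 7 genes were lower in males on HF/HS, and without only CC011 female HF/HS library 1, 6 were. When each strain counted as 1 unit, only Sds was called on HF/HS (limma adjusted p = 0.00298), and Arg1 (0.0567), Gls2 (0.0907) and Hal (0.139) were not.

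Each strain and sex offers its own comparison of 3 HF/HS with 3 control libraries (2 with 2 in CC040 females). In 151 of the 200 gene and group pairs the HF/HS mean was lower. The share of all genes with a lower mean was not taken. The median difference over all genes lay between -0.016 (CC011 males) and 0.032 (CC042 males). Genes of a group share its libraries, so the 200 pairs are not separate results. All HF/HS libraries lay below all control libraries in 56 pairs and above them in 6. Over all genes tested, 10.6% of such pairs lay wholly below and 11.1% wholly above, so 56 and 6 of 200 compare with nearly equal shares. Without CC011 female HF/HS library 1 the count below was 56, and without CC003 and CC060 it was 49.

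**Figure D3:**
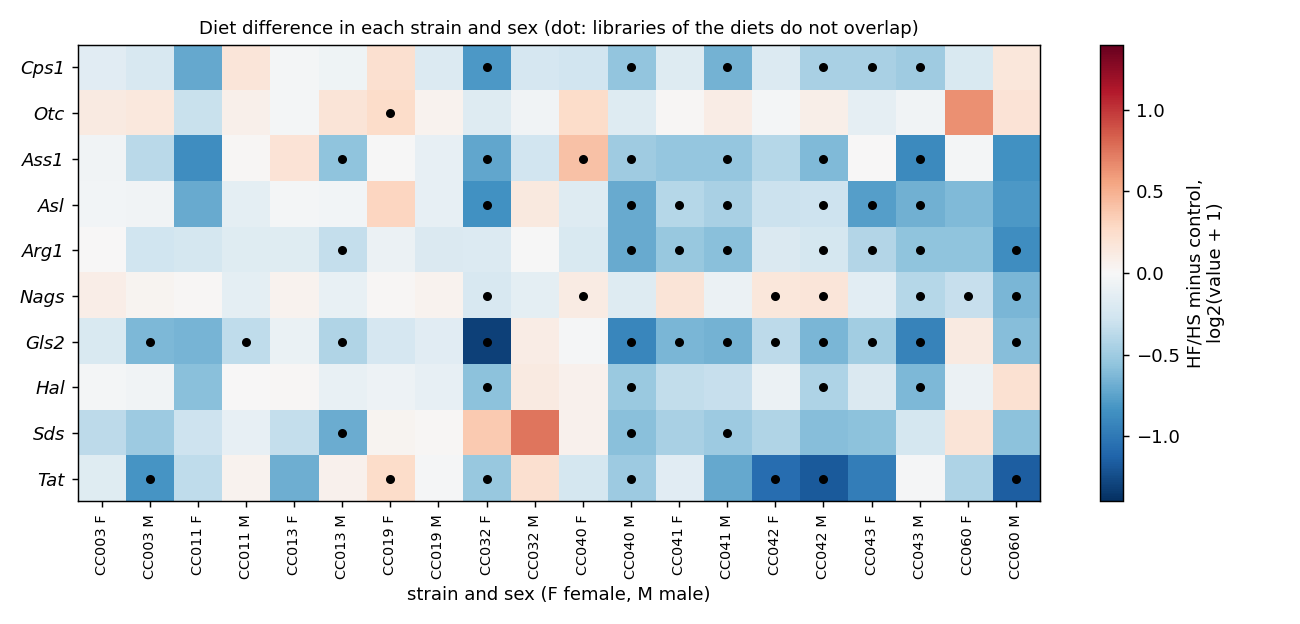
HF/HS minus control on the log2(value + 1) scale (colour, blue lower and red higher on HF/HS) for each gene (rows) in each strain and sex (columns); a dot marks groups whose libraries do not overlap between the diets. Gls2 in CC032 females is darkest at -1.31, and the CC040 male and CC043 male columns are blue in all 10 rows.

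CC040 males and CC043 males had a lower HF/HS mean for all 10 genes, without overlap for 8 and 7 of them. CC032 females had 9 lower, 7 of them without overlap, and CC042 males had 8 lower, 7 of them without overlap. These groups are named because they had the highest counts without overlap. The share of all genes without overlap was taken only over all groups pooled (10.6% below), not within single groups. The median difference over all genes was -0.01 in CC040 males, -0.005 in CC043 males, -0.01 in CC032 females and 0.032 in CC042 males. Within CC040 males, Gls2 had 219, 265 and 191 on the control diet and 117, 141 and 99.1 on HF/HS. In the same males Arg1 had 1812, 1992 and 1662 on control and 1108, 1226 and 1027 on HF/HS. Every HF/HS library was below every control library for both genes. In CC040 females, with 2 libraries on each diet, 5 of 10 genes were lower, 0 without overlap. Their Ass1 values were 427 and 382 on control and 569 and 505 on HF/HS, which lay wholly above. Nags also lay wholly above in these females, with a difference of 0.112. With 2 libraries on each diet, separation by chance is more likely than in the larger groups, so the pooled shares are not a like comparison.

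The values of CC032 are given for each sex as well. In females Gls2 had 194, 202 and 194 on the control diet and 59.6, 70.4 and 116 on HF/HS. Their Asl values were 463, 548 and 533 on control and 233, 300 and 326 on HF/HS. In CC032 males Gls2 had a mean of 106 ± 14.3 on control and 114 ± 3.49 on HF/HS (SD, n = 3 each), and the diets overlapped. Only 5 of 10 genes were lower in those males. The sex difference within 1 strain was not tested here.

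CC019 showed the fewest lower genes. In CC019 females 4 of 10 were lower, and 2 lay wholly above without overlap. Otc had 412, 398 and 365 on the control diet and 452, 460 and 495 on HF/HS in them, and Tat had 845, 850 and 790 on control and 858, 1079 and 1052 on HF/HS. CC019 males had 7 lower and 0 without overlap. Their Tat control values of 1482, 1517 and 291 spread widely.

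Within single strains, with the sexes averaged, 12 of 100 gene and strain pairs were called. Without CC011 female HF/HS library 1 the count was 16, with Gls2 in CC042 and Cps1, Nags and Hal in CC043 added. No gene was called in CC003 (9.79% of all genes), CC011 (0.197%), CC013 (0.41%), CC019 (0.852%) or CC040 (0.401%). With limma's unadjusted p under 0.05 the count was 1 in CC003, 2 in CC011, 2 in CC013, 0 in CC019 and 4 in CC040. Without female HF/HS library 1, 0 genes were called in CC011 as well. In CC032, where 5.57% of all genes were called, Cps1 fell by 0.52 ± 0.17 and Gls2 by 0.60 ± 0.17. Gls2 there was at -1.308 in females and 0.103 in males, and Cps1 at -0.805 and -0.231. In CC041, with 4.4% of all genes called, Arg1 fell by 0.55 ± 0.12 and Gls2 by 0.65 ± 0.17. In CC042, with 4.51%, Tat fell by 1.12 ± 0.31, to 0.459 times the control level. In CC043, with 6.04%, Asl fell by 0.72 ± 0.18, Gls2 by 0.71 ± 0.17 and Arg1 by 0.48 ± 0.12. Of the calls in these 4 strains, those of Arg1 in CC041 and of Asl and Gls2 in CC043 were kept in each of 12 leave-outs of 1 number, sex and diet. Cps1 in CC032 was lost in 9 of the 12, Gls2 in CC032 in 6, Gls2 in CC041 in 4, Tat in CC042 in 3 and Arg1 in CC043 in 1.

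CC060, where 13.4% of all genes were called, had the most called members, 4. Arg1 fell by 0.72 ± 0.12 (limma adjusted p = 1.51e-05), Asl by 0.71 ± 0.18 (0.00294) and Nags by 0.49 ± 0.089 (6.92e-05), and Otc rose by 0.42 ± 0.14 (0.037). The Otc rise came with a low control library. CC060 female control libraries had 141, 477 and 327, against 437, 441 and 439 on HF/HS. Without the female control libraries of number 1, which include the library with 141, the difference was 0.17 and the adjusted p 0.415. The Asl fall was likewise lost without these libraries or without the male control libraries of number 3, where CC060 had 1632 (female control 1) and 1171 (male control 3) against 394 to 537 in its other control libraries. Arg1 and Nags in CC060 kept their calls in each of the 12 leave-outs, and Otc lost its call in 8.

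In CC042 the Tat fall was plain in both sexes. Females had 2350, 2458 and 1548 on control and 950, 992 and 1037 on HF/HS. Males had 1961, 1460 and 923 on control and 707, 717 and 447 on HF/HS. The diets did not overlap in either sex. In CC043 females Tat ranged more widely, with 1375, 2412 and 3895 on control and 1061, 2111 and 770 on HF/HS, and the diets overlapped.

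Whether the diet effect differed between strains was tested with an F test over the 10 strains. Only Nags was called (F = 4.55, limma adjusted p = 0.00497), beside 5.54% of all genes. Nags fell in CC060, whose males had 55.5, 57.7 and 89.9 on control and 38.0, 48.3 and 40.2 on HF/HS. In CC042 it lay higher on HF/HS in both sexes without overlap, for example 39.2, 40.5 and 39.0 on control against 41.1, 51.0 and 42.7 on HF/HS in males. Without CC060 the strain difference of Nags was not called (limma adjusted p = 0.112), nor without CC003 and CC060 (0.106). Arg1 had an adjusted p of 0.0554 and was called without CC011 female HF/HS library 1 (0.0435). Sds, which was higher on HF/HS in CC032 females (0.37) and males (0.75) and lower in CC013 males (-0.69), had an adjusted p of 0.232. Without CC003 and CC060, Asl and Sds were called in place of Nags.

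The strains had different control levels. On the control diet all 10 differed between the 8 strains other than CC003 and CC060, whose libraries differ in kind (limma F test, adjusted p from 3.49e-14 for Sds to 0.0229 for Otc). So did 86.5% of all genes, so 10 of 10 is near that share. The Otc call was lost in 6 of 36 alternatives, among them without CC043 (F = 1.08, limma adjusted p = 0.4) and without the control males of number 2 (0.14). CC019 had the lowest mean for 6 genes (Ass1, Asl, Arg1, Hal, Sds and Tat).

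Sds spread most, with a highest over lowest strain mean of 5.48. CC040 had 495 ± 47.6 (SD, n = 5) with libraries from 446 to 558. CC042 followed with 274 ± 82.1, then CC011 with 245 ± 46.6, CC013 with 223 ± 34.5, CC043 with 201 ± 110, CC041 with 187 ± 44.7, CC032 with 116 ± 34.3 and CC019 with 90.3 ± 24.1 (SD, n = 6 each). CC040 lay wholly above CC042, and each other neighbour in this order overlapped the next. CC003 had 82.9 ± 13.7 and CC060 355 ± 216 (SD, n = 6 each).

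Tat ranged from 2574 ± 514 in CC040 (SD, n = 5) to 963 in CC019 (291 to 1517, n = 6), a ratio of 2.67. Asl ranged from 750 ± 180 in CC043 to 317 ± 43.9 in CC019 (SD, n = 6 each), a ratio of 2.36, and Ass1 from 376 ± 43.2 in CC040 to 181 ± 22.3 in CC019, a ratio of 2.08. Hal (219 in CC041 to 109 in CC019) and Gls2 (270 in CC011 to 134 in CC013) both had a ratio of 2.02. Arg1 had 2095 in CC041 (1734 to 2338) and 1133 in CC019 (979.5 to 1242), a ratio of 1.85. Cps1 (2876 in CC041 to 1750 in CC032, ratio 1.64), Otc (530 in CC043 to 383 in CC013, ratio 1.38) and Nags (53.4 in CC032 to 40.4 in CC042, ratio 1.32) varied least. Among the 7 steps between neighbours in the order of each gene, only that from CC040 to CC042 for Sds and that from CC041 to CC019 for Asl had no overlap of libraries.

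Libraries of the same group varied in these genes to an unequal degree. The members' median SD within groups was 0.125 on the log2 scale in CC042 and 0.461 in CC060, with 0.442 in CC011. Over all genes tested the median SD was 0.12, 0.271 and 0.19 in these strains. Without female HF/HS library 1 the members' median SD in CC011 was 0.23, and that of all genes 0.163. In that library Cps1 had 779 (2092 and 2316 in the other libraries of that group), Ass1 77.7 and Hal 42.0 (121 and 145). Arg1 in it was 1614, nearer to 1797 and 1830.

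Within groups, most pairs of these genes had positive correlations from library to library. After the group means were taken out, 43 of 45 pairs had a Pearson r above 0, with a median of 0.448 over all libraries used. Over all 74474910 pairs of the genes tested the median r was 0.00, 50.0% of them were above 0, and 2.96% reached 0.448. The permutation test was not run on all these pairs, so no share passing stands beside the counts that follow. Of the 45 pairs, 31 passed at an adjusted p under 0.05, all positive (two-sided permutation test within groups, 100000 permutations, Benjamini-Hochberg over the 45 pairs), and 38 passed by Spearman's rho. Without CC011 female HF/HS library 1, 28 passed, all positive, with a median r of 0.411, which 3.89% of all pairs reached. Asl and Arg1, which act in sequence, had the highest value: r = 0.763 and rho = 0.747, both at the smallest p the permutations can give, 1e-05 (adjusted permutation p = 5e-05 and 3.46e-05), and r = 0.722 without the 2 libraries farthest from the median of Asl. Arg1 and Sds had r = 0.717 and rho = 0.652. Ass1 and Asl, the neighbours in the cycle, had r = 0.678 but rho = 0.488, and r = 0.582 without the 2 farthest libraries.

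The lowest values were those of Otc. Its r with Tat was -0.16 (adjusted permutation p = 0.511) and with Sds -0.07 (0.796). With Arg1 its r was 0.0094 and its rho 0.435, with an adjusted permutation p of 0.975 and 0.00015. In the 94 libraries without CC003 and CC060, Otc and Cps1 had r = 0.808 and rho = 0.67, against 0.351 and 0.523 with all strains, and 35 of 45 pairs passed. In the same 94 libraries Otc and Arg1 had r = 0.408 and rho = 0.532 (adjusted permutation p = 0.000129 and 7.5e-05). There the r of Otc was 0.0941 with Sds and 0.0436 with Tat. Without CC011 female HF/HS library 1 alone, Otc and Cps1 had r = 0.105 and rho = 0.491. Tat had low values with Gls2 (0.145) and Ass1 (0.17), whereas with Sds it had 0.467 (adjusted permutation p = 0.0012). Within single strains the median r of the 45 pairs ranged from 0.232 in CC042 to 0.657 in CC011 (0.679 without its female HF/HS library 1), with 31 (CC040) to 45 (CC003) pairs above 0. Libraries share their depth and cell mix in each pair, and the part of these was not tested.

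**Figure D4:**
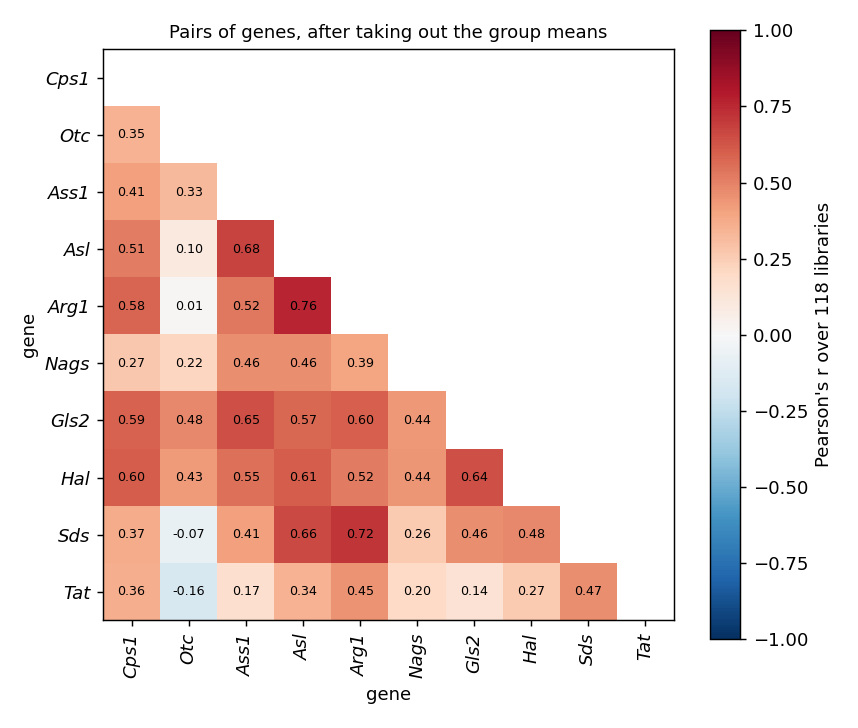
Pearson's r (colour and printed value) for each of the 45 pairs of genes over all libraries used, after the mean of each strain, sex and diet group was taken out. Asl with Arg1 has 0.76 and Otc with Tat -0.16, the highest and the lowest value.

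Other genes whose levels ran most like each gene over the 32 group means of the 8 strains are given as a description, with 11331 genes compared. Tat ran with Slc38a2, an amino acid transporter (r = 0.868), and with the clock gene Per1 (0.818). Cps1 ran with Slc38a3, the liver glutamine transporter (0.821), and Ythdf3 (0.806). Asl ran with Ahcy, S-adenosylhomocysteine hydrolase (0.827), and Vps13a (0.805), and Arg1 with Morc3 (0.832) and Pank3 (0.819). Otc ran with Macrod1 (0.791) and Cth, which makes cysteine (0.766), and Ass1 with Psmd9 (0.771) and Amy2b (0.76). Sds ran with D1Ertd622e (0.87) and Cyth1 (0.834), and Hal with Afm (0.814) and Gid8 (0.782). Gls2 ran with Ppp1r15b (0.762) and Ralgapa2 (0.746), and Nags with Anks4b (0.752) and Narfl (0.746). The group means share strain, sex and diet, and no gene of the 10 was among the nearest 2 of another.

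In the neighbouring pathways genes moved in both directions on HF/HS. The lists were chosen with earlier results of these data known. Of 22 tested partners in ammonia, glutamine and glutamate handling, 5 fell and 5 rose (median 0.01), beside 15.4% and 17.2% of all genes. Slc38a3, the glutamine transporter, fell by 0.22 ± 0.040, Got1, cytosolic aspartate aminotransferase, by 0.48 ± 0.089, and the amino acid transporter Slc38a2 by 0.28 ± 0.070. Aqp9, a glycerol and urea channel, rose by 0.11 ± 0.031. Slc25a15, the ornithine carrier of mitochondria, fell by 0.15 ± 0.042, and Glul, which makes glutamine in pericentral hepatocytes, rose by 0.14 ± 0.042; these were named outside the rule, after their values were seen.

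In branched-chain amino acid breakdown 11 of 19 genes rose and 0 fell (median 0.08), beside 17.2% and 15.4% of all genes tested. Bckdhb, a subunit of the branched-chain ketoacid dehydrogenase, rose by 0.14 ± 0.023, Hibadh by 0.22 ± 0.038 and the activating phosphatase Ppm1k by 0.30 ± 0.059. Of 13 serine, glycine, threonine and cysteine genes, 6 rose and 4 fell (median 0.02), with Agxt2 at 0.33 ± 0.030, Csad at 0.52 ± 0.11, Srr at 0.14 ± 0.030 and Gcat at -0.40 ± 0.047. Of 10 proline, lysine and asparagine genes, 3 rose and 3 fell (median 0.03). Aldh7a1 rose by 0.19 ± 0.036, Gcdh by 0.17 ± 0.035 and Asrgl1 by 0.14 ± 0.032, and the asparaginase gene Aspg fell by 0.15 ± 0.034.

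The other genes of the pathways begun by Tat and Hal were read beside all genes, of which 15.4% fell and 17.2% rose. Of 7 phenylalanine and tyrosine genes, 2 fell and 0 rose (median -0.02), and Qdpr fell by 0.24 ± 0.053. Of 5 histidine genes, Hnmt, which methylates histamine, rose by 0.29 ± 0.040 and 0 fell (median 0.00). Of 8 tryptophan genes, Aadat and Kmo rose by 0.21 ± 0.052 and 0.13 ± 0.034, and Acmsd fell by 0.62 ± 0.085 (median -0.01).

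Among 19 regulators, 5 fell and 1 rose (median -0.01), beside 15.4% and 17.2% of all genes. Ppargc1a, a coactivator of fasting genes, fell by 0.37 ± 0.069 (limma adjusted p = 9.06e-06), Atf4, a regulator of amino acid responses, by 0.19 ± 0.040 and Creb1, which glucagon activates, by 0.09 ± 0.024. Sirt5, a mitochondrial enzyme that acts on Cps1, rose by 0.13 ± 0.033 (limma adjusted p = 0.000838). These are RNA levels only, and they say nothing of the activity of the proteins.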

How the data were processed

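The 120 liver RNA libraries had been made with Illumina TruSeq Stranded kits, and the labels name both an rRNA-depletion and an mRNA kit without saying which library had which. Per the submitters' processing notes, the tools were Cufflinks 2.2.1, Bowtie2 2.2.5.0 and TopHat2 2.1.1, and the build was mm10; the deposited values are taken as FPKM rescaled by the authors to a common 75th percentile, and the exact formula is not given in the sources used here. Genes with a mean of at least 1 (12205 of 24883 rows) were tested on log2(value + 1) with limma 3.58.1 in R 4.3.3 (40 group means, trend and robust prior, two-sided, Benjamini-Hochberg over all genes tested, called under 0.05). The diet effect over all strains and sexes and the F test of strain differences in it were tried on simulated data with independent noise for each gene. The sex comparisons, correlations, overlap counts and the rule for far libraries were not tried in this way. Fold changes on this scale understate the change of low genes. The members and lists were chosen with earlier results of these data known. Genes named from a list were the 4 called genes with the lowest p, of which some are not reported here, and like genes the 2 with the highest r. Same-numbered libraries of the 2 diets mostly did not deviate together (9 of 58 pairs had a correlation over 0.1, among them all 3 of CC041 females, at 0.25 to 0.365), so numbers were not used as pairs. Alternatives covered the pseudocount, filter, scaling, prior, replicate block, library weights and left-out libraries or strains. Some were added after the data were seen: those for the diet effect in each strain, those for the strain and sex values, and (correlations and spread included) leaving out CC011 female HF/HS library 1, chosen for its Saa3 and Lcn2 values.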

Additional observations from a re-analysis of the deposited data

Results flagged for a closer look

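With both sexes in 1 set, a library lay far from the others of its strain and diet in 8 of the 200 sets of 1 gene, strain and diet (4.0%), where chance alone gives about 1 in 20. Cps1 was lowest in CC011 female HF/HS library 1, at 778.8 against 2092 to 2673 in the other CC011 HF/HS libraries. Cps1 was also low in CC041 male HF/HS library 2, at 1644 against 2154 to 2310. Ass1 was low in CC032 male control library 2, at 157.7 against 226.4 to 263.6. CC040 female HF/HS library 3 was highest for both Asl, at 653.1 against 345.3 to 421.2, and Sds, at 701.2 against 318.1 to 356.4. CC043 female control library 3 was likewise highest for Asl, at 1107 against 610.5 to 728.4, and Sds, at 422.5 against 141.7 to 188.2. Arg1 was highest in CC060 female control library 1, at 3816 against 1446 to 2040.

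The diet effect on Nags differed between strains (limma F = 4.554, adjusted p = 0.00497), with a fall in CC060 and higher HF/HS values in CC042, and the call was lost without CC060.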

How the results depend on the processing

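Over 36 alternatives for the diet effect over all strains and sexes, 7 of the 9 calls were kept throughout; Nags was lost in 13, Sds in 1 (strain as the unit), and Otc was called in 2. With the strain as the unit the counts were 1 gene in females, 3 in males, 2 between the sexes on control and 1 on HF/HS. Library weights, whose estimation stopped before its tolerance, gave 3 for the male minus female diet effect and 7 between the sexes on HF/HS. They also gave 10 for the diet effect differing between strains and 41 within single strains, against 12. The shares of all genes called under each alternative in this section are not given here. Its counts are therefore not read as results about the members alone. Without CC032, 3 genes fell in females, and without CC041, 5 fell in males. Without CC011, 7 genes differed between the sexes on HF/HS and 2 had a diet effect differing between strains. That last count was also 2 with the prior without trend, with either replicate block, without CC003 and CC060, and without CC011 female HF/HS library 1. The replicate block changed no other count, except that within strain and sex it gave 13 calls in single strains, adding Nags in CC043.

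Leaving out libraries of 1 number, sex and diet gave 8 to 9 genes over all, 3 to 6 in females, 6 to 9 in males, 0 to 0 for the male minus female diet effect, 2 to 5 between the sexes on control, 3 to 7 on HF/HS, 1 to 2 for strain differences in the diet effect, 9 to 10 for strains on control and 6 to 14 within single strains. Female control number 1 gave the 3 in females and the 2 on control, female HF/HS number 1 the 7, female control number 2 the 2, and male HF/HS number 3 the 6. No sign change involved a called value, and the cause was not tested. For values not printed one by one there were 43 sign changes in 5 members for the male minus female diet effect, 3 in 2 members between the sexes on HF/HS and 1 on control. In females, Otc was -0.018 without CC003 and CC060 and -0.00199 without CC060. In females, Nags was 0.0215 without CC003 and CC060, 0.0203 with library weights, 0.018 without CC032, 0.0097 without CC043, 0.0299 without CC060 and 0.00524 without CC011 female HF/HS library 1. By left-out number it ranged from -0.0457 to 0.0427, and was 0.019 and 0.00941 without female HF/HS numbers 1 and 2. Strain order and likeness were not recomputed. Depth is unknown, so no counting error was available.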
